A study of Heliconius himera and Heliconius erato lativitta and Heliconius erato petiverana with 18 samples.

Results

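The hindwing was compared with the forewing in Heliconius erato petiverana, a Neotropical butterfly race. The members were the 6 petiverana libraries of a series of 18: 3 forewing (FW) and 3 hindwing (HW) libraries, numbered 1 to 3 in each wing and paired by number. All 6 were whole wings taken at day 3 after pupation from animals reared at about 27 °C, and the labels name no treatment or altered gene. H. himera and H. erato lativitta, with 3 FW and 3 HW libraries each, were used for comparison and had the same tissue, stage and rearing. Poly-A RNA was sequenced and reads were counted per gene ID. The labels do not say whether libraries came from separate animals, whether FW and HW of a number came from the same animal, or what sex the animals were. The p-values therefore describe only how much these libraries vary, which may be technical.

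Insect forewings and hindwings develop from serially homologous discs, and hindwing identity is set by the Hox gene Ultrabithorax, which is active in the hindwing and not in the forewing. In the early pupa the wing is a thin epithelium with trachea, nerves and haemocytes, in which scale-building cells are specified before pigments are made. Adult petiverana carry a red band on the forewing and a yellow bar on the hindwing. The deposited files list gene IDs without names, so which ID is which gene, and markers of wing cells or of other cell types, were not analysed here. IDs are given as deposited.

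The 6 libraries held 5126335 to 8250443 reads assigned to genes, and 9652 of 14612 IDs were read in all of them. Libraries of a number resembled each other more than libraries of a wing: Spearman's rho across IDs was 0.976 to 0.984 between FW and HW of a number and 0.894 to 0.964 between numbers of a wing. The FW and HW libraries of a number shared 9 or 10 of their 10 most abundant IDs, while number 1 shared 0 or 1 with numbers 2 and 3. CPM values were TMM-normalised, which scales each library to its gene reads multiplied by its TMM factor. The factors were 0.522 to 0.740 in petiverana, so these CPM were higher than a scaling to gene reads alone would give. HEL_002963 was the most abundant ID in number 1, at 98547.3 CPM in FW and 126621.3 in HW. It was at 17.5 to 146 CPM in numbers 2 and 3. HEL_008904 led numbers 2 and 3, with 105629.7 to 133734.6 CPM, and was at 1451.0 and 2709.2 CPM in number 1. Reads outside annotated features made up 33.1%, 30.1% and 31.7% of all reads in FW 1, 2 and 3, and 37.2%, 31.3% and 32.9% in HW. This share was higher in HW in all 3 pairs (exact two-sided sign-flip permutation test, p = 0.25, the smallest 3 pairs allow). The part of that shift in the results below was not tested.

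Across 8747 IDs with enough reads in petiverana, the range of the 3 number means was larger than the absolute mean wing difference for 8274, or 94.6%. These measures are unlike: a range takes the extremes of 3 means, while pair differences of opposite sign cancel in the wing mean. The range would thus be the larger for many IDs without any effect, and that share was not worked out. The 3 number means of an ID spanned a median of 0.77 in log2 CPM, against a median absolute wing difference of 0.13. The number means spanned over 1 log2 unit for 3372 IDs, while the mean wing difference exceeded 1 log2 unit for 96. Numbers 2 and 3 differed by a median of 0.25 log2 units and number 1 differed from their mean by 0.57. Since libraries of a number resembled each other most, the wing comparison was made within numbers.

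**Figure D1:**
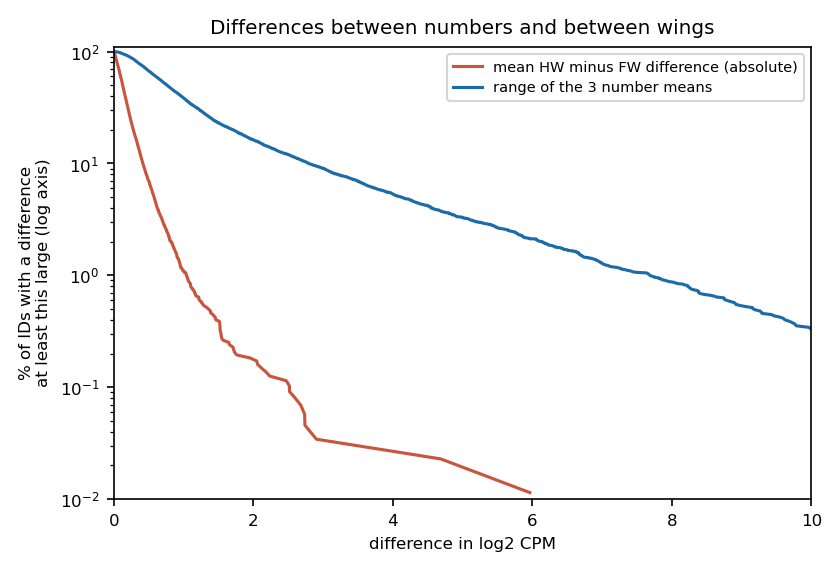
Share of the 8747 IDs (log axis, percent) whose difference in log2 CPM was at least the value on the horizontal axis, for the range of the 3 number means (blue) and the absolute mean difference between HW and FW (red) in petiverana. The curve of the numbers lies to the right: 16.3% of IDs spanned over 2 log2 units between numbers and 0.171% between wings. A range of 3 means and an absolute mean difference are unlike measures, so part of this gap would be seen without any effect.

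Within a number the wings were close. The log2 ratio of HW to FW had a standard deviation across IDs of 0.53, 0.38 and 0.44 in pairs 1, 2 and 3. In pair 1 it passed 2-fold for 485 IDs, 176 higher and 309 lower in HW. In pair 2 it passed 2-fold for 179 IDs, 73 higher and 106 lower, and in pair 3 for 338, 116 higher and 222 lower. In each pair more IDs were past 2-fold lower than higher in HW. At any size the lean was the other way: 1419 of the 8747 IDs were higher in HW in all 3 pairs and 1138 lower. The median log2 ratio was 0.023, 0.003 and 0.021 in pairs 1, 2 and 3. Across IDs, which are not independent replicates, the ratios of pairs 1 and 2 correlated at r = 0.08, those of pairs 1 and 3 at 0.17 and those of pairs 2 and 3 at 0.25. Past 2-fold in the same direction in all 3 pairs were 6 of 8747 IDs higher in HW (0.0686%) and 16 lower (0.183%).

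The paired test called 3 IDs, all higher in HW. The test was edgeR's quasi-likelihood test with library number as a block, fitted to petiverana and himera together because numbers pair the wings in both taxa, with Benjamini-Hochberg adjustment over 9721 IDs and a threshold of 0.05. It called 3 IDs higher (0.0309% of those tested) and 0 lower (0%), while 466 (4.79%) had an unadjusted p under 0.05, of which 193 were higher and 273 lower. DESeq2 with the same design called 5 higher and 7 lower.

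HEL_004329 was a transcript of the hindwing in petiverana. It had 62, 129 and 116 reads in HW 1, 2 and 3, or 18.9, 23.4 and 22.2 CPM, and 0, 0 and 2 reads in FW 1, 2 and 3. Every HW library was above every FW library, and the 3 HW levels were close to each other. From 307 reads against 2, the HW to FW ratio was 151 (95% interval for counting error alone 41.6 to 1256), and the fitted log2 change was 7.08 (SE 0.54, edgeR adjusted p = 0.00875). Between numbers its mean level differed 1.24-fold.

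HEL_004330, the next ID by number, had 18, 54 and 40 reads in HW 1, 2 and 3, or 5.48, 9.80 and 7.67 CPM, and 0, 1 and 0 in FW. Its groups did not overlap either. Its ratio was 110 (95% counting interval 19.4 to 4402) from 112 reads against 1, and its log2 change was 6.50 (SE 0.60, edgeR adjusted p = 0.0138). Whether consecutive IDs lie side by side in the genome was not analysed here. With so few FW reads the pair ratios depend on the prior count of 2, and on that scale they were 6.25, 6.56 and 5.08 for HEL_004329 and 4.51, 4.57 and 4.98 for HEL_004330. Both IDs had a change of like size in himera (log2 7.40 and 7.14) and in lativitta (7.45 and 7.62). The petiverana minus himera difference was -0.32 (SE 1.22) for HEL_004329 and -0.64 (SE 1.44) for HEL_004330. Neither call held when any 1 petiverana pair was left out, while the fitted values stayed large. Without pairs 1, 2 and 3 the log2 values of HEL_004329 were 6.80, 6.30 and 10.46 (edgeR adjusted p = 0.10, 0.243 and 0.206) and those of HEL_004330 were 6.34, 8.75 and 6.04 (adjusted p = 0.179, 0.567 and 0.206). The highest value of each ID, 10.46 and 8.75, came from a fit whose petiverana FW libraries held no read of it, so its size was not measured. HEL_004330 also missed the threshold without himera pair 2 (adjusted p = 0.0517).

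HEL_006768 rose in HW in a different way, in numbers 2 and 3 only. It was at 47.0 CPM in FW 2 and 299 in HW 2, and at 15.7 in FW 3 and 94.9 in HW 3. In number 1 it was at 0.635 CPM in FW, from 2 reads, and 0.304 in HW, from 1 read. The levels of FW and HW overlapped across numbers, and the pair ratios were -0.67, 2.67 and 2.58 on the log2 scale. The log2 change was 2.57 (SE 0.24, edgeR adjusted p = 0.0138). The change was 0.52 in himera (SE 0.21, adjusted p = 0.279) and -0.19 in lativitta (SE 0.37, adjusted p = 0.997). The difference between petiverana and himera was 2.05 (SE 0.31) with an unadjusted p of 0.000159, but it did not pass over all IDs (edgeR adjusted p = 0.153), nor did that from lativitta (2.74, SE 0.55, adjusted p = 0.861). The wing call was lost without petiverana pair 2 (adjusted p = 0.567), without pair 3 (0.463) and without himera pair 2 (0.0522). It was also lost in the fit of all 18 libraries with the block in petiverana and himera (0.186), and in both fits with no replicate block (adjusted p = 1 in each). Without petiverana pair 1 it was the 1 ID that passed.

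**Figure D2:**
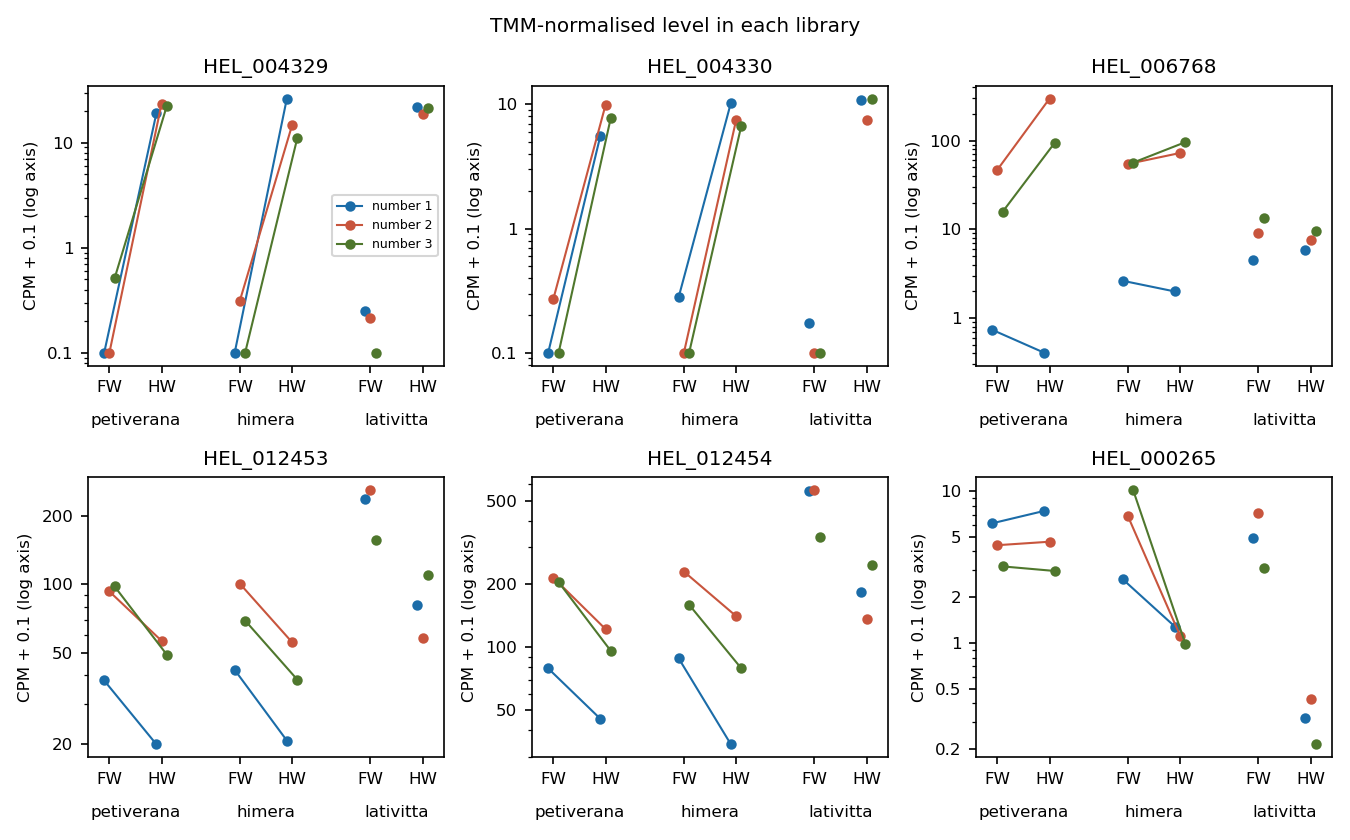
Level of 6 IDs in each of the 18 libraries, as TMM-normalised CPM plus 0.1 on a log axis, with lines joining FW and HW of a number (colours) where numbers pair the wings. HEL_004329 and HEL_004330 rise in every petiverana and himera pair, HEL_006768 rises in petiverana 2 and 3 from 47.0 to 299 and from 15.7 to 94.9 CPM, HEL_012453 and HEL_012454 are lower in HW in every pair, and HEL_000265 is level in the petiverana pairs and lower in HW in the himera pairs.

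Nearest to the threshold was HEL_012453, lower in HW, which is named here after its values were seen. It was at 37.8, 93.1 and 97.9 CPM in FW 1, 2 and 3 and at 19.8, 56.5 and 49.1 in HW. The wings overlapped across numbers, since FW 1 lay below HW 2 and HW 3, but HW was lower in all 3 pairs by a like amount (-0.92, -0.72 and -0.99 on the log2 scale). The fitted change was -0.89 (SE 0.10, edgeR adjusted p = 0.0559). The next ID by number, HEL_012454, was at 79.1, 215 and 204 CPM in FW and at 45.4, 122 and 95.9 in HW, with a change of -0.92 (SE 0.14, adjusted p = 0.217). In himera the changes were -0.89 (adjusted p = 0.0208) and -0.998 (adjusted p = 0.0266), both past the threshold. In lativitta they were -1.39 and -1.36, which did not pass (adjusted p = 0.126 and 0.199). In petiverana HEL_012453 passed with DESeq2 (adjusted p = 0.000272), without a filter on low counts (0.0269), with limma voom (0.0481) and without himera pair 1 (0.00806). HEL_012454 passed with DESeq2 (0.00121) and without himera pair 1 (0.0118). Neither ID passed in the fits of all 18 libraries, in the fits with no replicate block, or against a 1.5-fold change. Both also missed the threshold when any 1 petiverana pair was left out. Without pairs 1, 2 and 3 HEL_012453 had an edgeR adjusted p of 0.281, 0.347 and 0.679.

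The number of IDs called differed between sets of libraries. Within pairs the common dispersion was 0.0118 in petiverana alone and 0.0303 in himera alone. A fit of the 6 petiverana libraries alone, with the same block and 2 residual degrees of freedom, tested 8747 IDs and called 7 higher (0.0800%) and 28 lower in HW (0.320%). The 3 IDs above were among the 7. Beside the dispersion, this fit differed in the IDs tested and in its degrees of freedom, and the part of each was not tested. All 35 had the same direction in the fit with himera, where 24 had an unadjusted p under 0.05. The fit with himera but without himera pair 1 called 4 higher and 25 lower, of which 24 in all were among the 35. DESeq2's 12 calls included 9 of the 35.

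**Figure D3:**
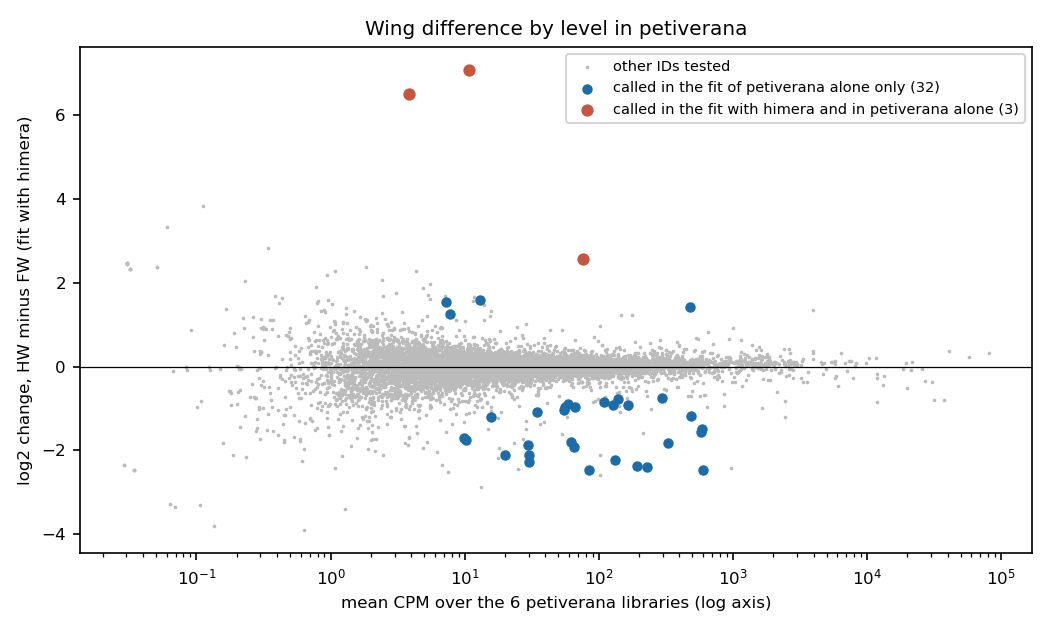
Log2 change of HW against FW in petiverana, from the fit with himera, against the mean CPM over the 6 petiverana libraries (log axis), for IDs tested in that fit and read in petiverana. The 3 IDs called in both fits (red) lie above 0, and of the 32 called only in the fit of petiverana alone (blue) 28 lie below it.

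The 28 IDs lower in HW in petiverana alone were lower in all 3 pairs, a direction that the choice of IDs largely fixes. They were described in 2 sets that were chosen after the values were seen. In 12 of them number 3 stood at least 10-fold above numbers 1 and 2. These had a median of 343 CPM in FW 3 and 83.4 in HW 3, of 12.2 in FW 1 and 1.22 in HW 1, and of 1.81 in FW 2 and 0.272 in HW 2. Both the high level in number 3 and the lower level in HW were used to choose these IDs. DESeq2 called 0 of the 12, and the fit without himera pair 1 called 9. In the fit with himera their unadjusted edgeR p was 0.0138 to 0.162. The median log2 ratio of the 12 was -2.71 in pair 1, -1.09 in pair 2 and -2.06 in pair 3, and the last was the narrowest, from -2.39 to -1.69. The 12 were at 0 to 11.9 CPM in HW 1 and 0 to 3.27 in HW 2. With so few reads the ratios of pairs 1 and 2 depend on the prior count of 2. Their size and width therefore cannot be set against those of pair 3. When pair 3 was left out of the petiverana fit, 4 of the 12 passed, in libraries that had also been used to choose them.

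In himera, whose libraries were not used to choose them, the same 12 IDs had no constant direction between wings. In himera pair 1 all 12 were lower in HW, with a median log2 ratio of -6.14 and medians of 69.0 CPM in FW and 0.826 in HW. In himera pair 2 all 12 were higher in HW, with a median ratio of 2.68 and medians of 0.321 CPM in FW and 4.50 in HW. In himera pair 3 the ratio had a median of 0.41, and 2 of 12 were lower. The medians there were 0.213 CPM in FW and 0.247 in HW, too few reads to give a direction. Over all 9721 IDs tested, 49.5%, 51.0% and 49.7% were lower in HW in himera pairs 1, 2 and 3. The 12 IDs thus went the same way as each other in himera pairs 1 and 2, and the way differed between these pairs. The high level in himera was in 1 library, FW 1, while the other himera medians were 0.213 to 4.50 CPM. Since the 12 were chosen for a shared pattern, they are not independent of each other, and their counts are no test of a wing difference. In lativitta their medians were 0.0576 to 0.224 CPM in FW and 0.115 to 1.55 in HW, and 4 of 12 were lower in HW. What these IDs encode, and in which cells, was not analysed here, and in whole wings fewer cells of a type and less RNA per cell cannot be told apart.

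The other 16 IDs lower in HW had median log2 ratios of -0.998, -0.970 and -1.12 in petiverana pairs 1, 2 and 3. Their median level was 32.2, 130 and 122 CPM in FW 1, 2 and 3 against 19.9, 79.2 and 59.5 in HW. In himera 13, 4 and 9 of the 16 were lower in HW in pairs 1, 2 and 3, with median ratios of -1.20, 0.41 and -0.25. In lativitta 8 of 16 were lower, beside 51.5% of all IDs tested there. HEL_012453 and HEL_012454 belong to this set. DESeq2 called 5 of the 16, and the fit without himera pair 1 called 11. Of the 16, 11 passed in each of the 3 petiverana fits that left out a pair, and of the 12 above 4 did. These fits reused the libraries that chose the IDs and had 1 residual degree of freedom. They therefore give no independent support and do not rank the sets.

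**Figure D4:**
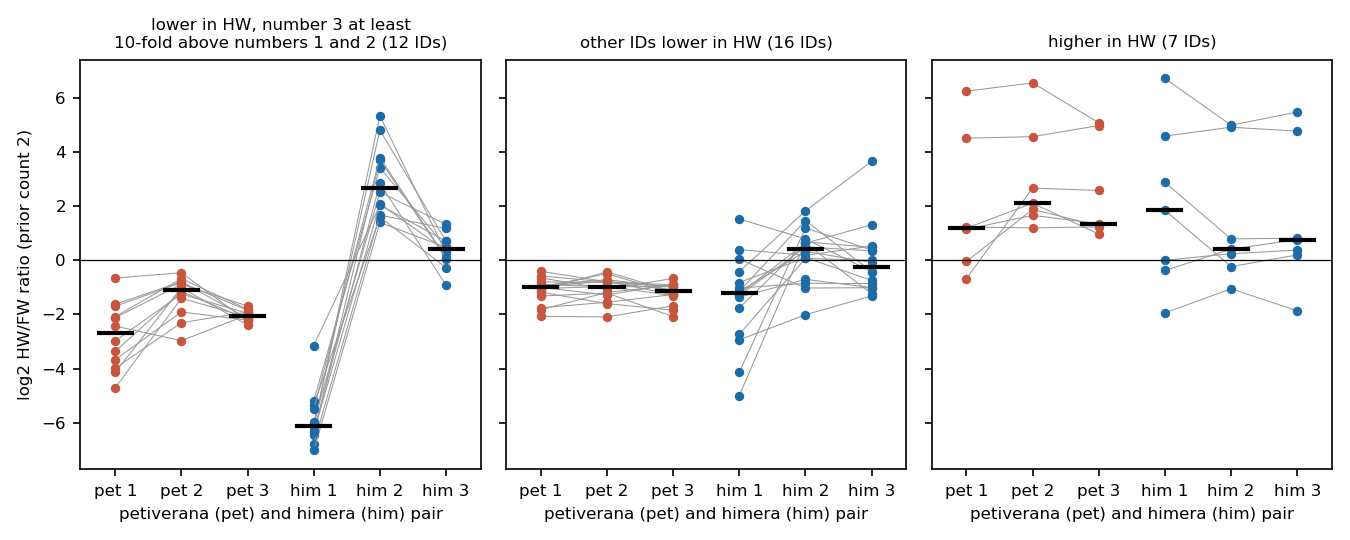
Log2 ratio of HW to FW (prior count 2) in the petiverana pairs (red, pet) and himera pairs (blue, him) for the 35 IDs called in petiverana alone, with a line per ID and a black bar at the median. The 12 IDs with number 3 at least 10-fold above the other numbers are below 0 in all petiverana pairs and in himera pair 1, and above 0 in himera pair 2.

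Among the 7 IDs higher in HW in petiverana alone, 5 were higher in all 3 pairs. Besides HEL_004329 and HEL_004330 the log2 changes in that fit were 1.245 to 2.60. In himera 6 of the 7 were higher in HW and in lativitta 5, beside 51.5% and 48.5% of all IDs tested that were higher there.

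Some IDs were read in 1 wing of petiverana alone. Of 12739 IDs read in any petiverana library, 8 had at least 1 read in every HW library and 0 in FW, and 13 had the reverse. Most of these had few reads in each library, so a lack of reads in the other wing says little. With at least 10 reads in a wing and 0 in the other there was 1 ID read in HW and 4 read in FW, of the same 12739. For HEL_005608, which is among the 4, all 10 reads were in FW 3. HEL_012761, named after its values were seen as the ID with the most such reads, had 4, 35 and 26 reads in FW 1, 2 and 3, or 1.27, 6.02 and 5.36 CPM, and 0 in HW, which makes it at least 22.0-fold lower in HW when the HW libraries together are set to a floor of 3 reads. Its level in the other taxa was 0.489 CPM or less in every library. It did not pass the filter on low counts. Without the filter, over 13455 IDs, it did not pass the test (edgeR adjusted p = 0.0768). HEL_001388, chosen from earlier results of these data, had 6, 18 and 10 reads in petiverana FW 1, 2 and 3 and 1 in each HW library. Its FW to HW ratio was 11.5 (95% counting interval 3.61 to 58.5), and the groups did not overlap. Its log2 change of -3.41 (SE 0.51) did not pass within petiverana (edgeR adjusted p = 0.216), and was -2.06 in himera (adjusted p = 0.068).

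The wing difference of petiverana was then set against that of the other taxa. In the same fit himera had 48 IDs called between wings (0.494% of 9721), 27 higher and 21 lower in HW. Of the 27, 12 were higher in petiverana HW too and 2 passed, which were HEL_004329 and HEL_004330. Their median log2 change was 2.14 in himera and -0.03 in petiverana. Of the 21 lower in himera, 16 were lower in petiverana, where 49.1% of all IDs tested were lower, with a median of -1.64 in himera and -0.37 in petiverana and 0 calls. Both sets were chosen by their himera values, which partly fixes the larger size in himera. With the same sign and an unadjusted p under 0.05 in petiverana were 4 of the 27 and 8 of the 21. Both taxa share the dispersion of an ID in this fit, so the shares over all IDs (1.98% higher, 2.81% lower) are not what these IDs would show with no change in petiverana.

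The himera calls themselves depended on the himera pairs. Without himera pair 1 there were 924, which included 40 of the 48, without pair 2 there were 27 and without pair 3 there were 11. Of the 924, 544 were higher in himera HW with a median log2 change of 1.07, and 299 of them were higher in petiverana, where the median was 0.02 and 3 passed. The other 380 were lower with a median of -0.89, and 203 of them were lower in petiverana, where the median was -0.03 and 4 passed. In petiverana 51.0% of all IDs tested in that fit were higher and 49.0% lower. Of all 10032 IDs tested, that fit called 4 higher and 25 lower in petiverana. The 924 were chosen by their himera values, which partly fixes the larger size in himera. The log2 ratios within himera pairs 1, 2 and 3 had a standard deviation across IDs of 0.61, 0.49 and 0.68. That spread does not measure how far the ratios of an ID differ between pairs. The common dispersion of the joint fit was 0.0220 with himera pair 1 and 0.0134 without it. Whether FW and HW of a himera number came from the same animal is not in the labels.

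The test of the difference itself called 0 of 9721 IDs between petiverana and himera in edgeR (0%), and 825 were at p under 0.05 before adjustment. With DESeq2 10 passed. The smallest p were those of HEL_009357 and HEL_014320. HEL_009357 had 9, 0 and 1 reads in petiverana FW 1, 2 and 3 and 2, 0 and 0 in HW, a change of -2.27 (SE 0.70, edgeR adjusted p = 0.913). In himera it was at 0, 0.749 and 0.938 CPM in FW 1, 2 and 3 and at 0.236, 21.2 and 21.6 in HW, which in pair 1 is 0 reads against 1 and in pairs 2 and 3 is 7 against 459 and 11 against 219. The difference between the taxa was -6.91 (SE 0.75, adjusted p = 0.144). HEL_014320 was at 16.8, 51.9 and 863 CPM in petiverana FW 1, 2 and 3 and at 38.7, 225 and 1688 in HW. It is among the 7 IDs called higher in petiverana alone. It was higher in HW in each pair, and its mean level differed 46.0-fold between numbers, with a change of 1.42 (SE 0.24, adjusted p = 0.346). In himera it was lower in HW in all 3 pairs, by -1.57 (SE 0.31, adjusted p = 0.0752). The difference of 2.99 (SE 0.40) did not pass (adjusted p = 0.144).

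The count of 0 against himera changed without himera pair 1. With 3 residual degrees of freedom, 342 IDs passed the test of the difference, 107 with a higher and 235 with a lower HW to FW ratio in petiverana. Of these 342, 319 were called between wings in himera and 15 in petiverana. Over all 10032 IDs that fit called 924 between wings in himera and 29 in petiverana. The 342 had a median absolute log2 wing change of 1.28 in himera and 0.19 in petiverana. They were chosen by the difference between the taxa in these same libraries, so a gap is largely fixed by that choice.

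Against lativitta, whose numbers do not pair the wings, the difference was tested in a fit of all 18 libraries. In edgeR 0 of 9957 IDs passed (0%) and 300 were at p under 0.05 before adjustment. DESeq2 passed 3. The smallest p was that of HEL_000265. An earlier test of these data had already singled it out as an ID without a difference in petiverana. Its values here are therefore not independent support. In petiverana HEL_000265 was at 6.03, 4.30 and 3.09 CPM in FW 1, 2 and 3 and at 7.30, 4.54 and 2.88 in HW. The wings overlapped and each pair was level, with a log2 change of 0.08 (SE 0.34, edgeR adjusted p = 1). In himera it was lower in HW by -2.75 (SE 0.34, adjusted p = 0.0226) and in lativitta by -4.47 (SE 0.54, adjusted p = 0.0124). It had 195 reads in himera FW and 36 in HW, and 147 in lativitta FW and 5 in HW. The size of the lativitta change thus rests on few HW reads. The difference of petiverana was 2.83 from himera (SE 0.48, adjusted p = 0.169) and 4.56 from lativitta (SE 0.69, adjusted p = 0.332), and neither passed. HEL_012616 came next, with 2, 2 and 16 reads in petiverana FW and 6, 6 and 45 in HW. Its pair ratios in petiverana were 1.23, 1.17 and 1.32 on the log2 scale, and its lativitta change was -1.20 (SE 0.32). The difference of 2.65 (SE 0.50) did not pass (adjusted p = 0.861).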

How the data were processed

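The authors deposited a file of raw counts for each library, listing 14612 gene IDs and 5 summary rows. The rows were left out of library sizes and tests and held 55.6% to 62.4% of the reads of a petiverana library. TopHat, bedtools and DESeq2 are named, without roles or versions, in the submitters' processing notes. The genome build, the annotation and whether counting used strand were not given in the sources used here, so overlapping or duplicated genes are uncertain.

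The tests used edgeR 4.0.16 under R 4.3.3 (filterByExpr by group, TMM factors, glmQLFit and glmQLFTest). The model had 1 level per taxon and number and 1 wing coefficient per taxon, over the 12 petiverana and himera libraries, with 4 residual degrees of freedom. The difference from lativitta used all 18 libraries, with the block in petiverana and himera only. Standard errors came from the F statistic. Printed CPM values used TMM factors over all 18 libraries. The scripts were tested on simulated data.

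Libraries with the same number deviated together from their group means, with r = 0.93, 0.85 and 0.87 in petiverana and 0.92, 0.87 and 0.85 in himera. In lativitta they were 0.60, -0.53 and -0.46, while the highest r with another number was -0.19, 0.73 and 0.63, so its numbers were not used as pairs and no other pairing was tried. Libraries of a petiverana wing had chi-square values of 60.5 or more for each degree of freedom, so none was a duplicate.

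With unnamed IDs, the rule took up to 2 called IDs per direction with at least 1 CPM and the same sign in 3 pairs, the 2 smallest p of each difference, and HEL_000265. The last was in the rule because of earlier results of these data. For the pairs that differed most among called IDs with at least 10 reads in each pair, it again took HEL_004329 and HEL_004330. It named none that fell, since 0 passed. HEL_006768, HEL_001388, HEL_012453, HEL_012454, HEL_012761 and the abundant IDs are named outside the rule, after their values were seen. Lists of named genes could not be used. The comparison, the fits and the rule were chosen with earlier results of these data known. Alternatives were DESeq2 1.42.0, its size factors, limma 3.58.1 voom, other filters, a 1.5-fold threshold, other sets of libraries, no block, and leaving out each pair.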

Additional observations from a re-analysis of the deposited data

How the results depend on the processing

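The fit with the replicate block called 3 IDs between petiverana wings, and 2 to 4 passed with median-of-ratios factors, without a filter, at a mean count of at least 10, against a 1.5-fold change, with limma voom, with all 18 libraries and either form of the replicate block, and without the block over all 18 libraries. DESeq2 called 12, petiverana alone 35 with the replicate block, and the 12 libraries with no replicate block 0. Leaving out 1 pair gave 0 to 29: 1, 0 and 0 without petiverana 1, 2 and 3, and 29, 1 and 3 without himera 1, 2 and 3. In petiverana alone, leaving out a pair gave 145, 86 and 47 for pairs 1, 2 and 3, with 1 residual degree of freedom, an alternative chosen after seeing the data. The difference from himera had 0 calls but 10 with DESeq2, 8 without a filter and 0 to 342 when a pair was left out, with the 342 reached without himera 1. The difference from lativitta had 0 calls but 3 with DESeq2. The call that dropped where 2 passed was HEL_006768. No value that passed the test for a named ID changed sign, and the wing change of HEL_000265, which passed in no setting, was -0.01 without petiverana 1. HEL_009357 and HEL_014320 passed the difference from himera with DESeq2, without a filter and without himera 1, and HEL_000265 passed it without himera 1. HEL_000265 passed the difference from lativitta with DESeq2 (adjusted p = 0.00505). Except where stated, the causes were not tested. A single library left out of a pair removes that pair under the block, so pairs were left out whole.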
